A study of Mus musculus with 22 samples.

Results

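The 9 genes described here encode enzymes of the citric acid cycle: Cs, Idh3a, Idh3b, Idh3g, Ogdh, Sucla2, Sdha, Fh1 and Mdh2. They were chosen by gene symbol from a list of cycle enzymes, and all 9 were found among the 48709 genes of each of the 2 count tables. RNA sequencing had been done on heart ventricles of mouse embryos at E13.5 in 2 experiments, with 3 libraries for each of 6 groups (18 libraries). Experiment 1 compared ventricles with a deletion of Lin9 (LIN9 KO) with controls (LIN9 wt), both with intact Sav1. Experiment 2 held 4 groups: controls with both genes, ventricles without LIN9 (LIN9 KO), ventricles without Salvador (Sav1 KO) and ventricles without either (double KO).

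All 6 groups carried Nkx2.5-Cre, a recombinase expressed in cardiac progenitors, so cells of the ventricle that do not descend from these progenitors keep both genes. LIN9 is a subunit of the MuvB core, which joins B-MYB to activate mitotic genes, and Sav1 encodes the scaffold protein Salvador of the Hippo kinase pathway. As the study describes them, the floxed part is a single exon of each gene, the mice had a C57/Bl6 background, and the LIN9 control was Lin9 fl/+, which the sample labels name wild-type. The study describes its LIN9 comparison as 2 biological replicates with triplicates in each. The labels do not say whether the 3 libraries of a group came from separate embryos or pools, so the p-values measure the spread between these libraries, which may be technical. The comparisons ask what loss of LIN9, loss of Salvador or loss of both does to the RNA of the cycle's enzymes.

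The citric acid cycle runs in the mitochondrial matrix. It condenses acetyl-CoA with oxaloacetate, releases the carbon as CO2 in a pair of oxidative decarboxylations and passes the electrons to the respiratory chain as NADH and FADH2. In the heart, cardiomyocytes gain oxidative capacity as they mature, and they hold far more mitochondria than most other cells of the organ. All of the cycle's enzymes are encoded in the nucleus and imported into the mitochondrion.

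The genes lie on 9 different chromosomes. In the GENCODE M21 annotation of GRCm38, Cs is at chr10:128337734-128362479, Idh3a at chr9:54586334-54604661, Idh3b at chr2:130279309-130284547 and Idh3g at chrX:73778963-73786897. Ogdh is at chr11:6291633-6356642, Sucla2 at chr14:73525319-73596142 and Sdha at chr13:74322254-74350280. Fh1 is at chr1:175600374-175625635 and Mdh2 at chr5:135778480-135790398. Counts covered whole genes, exons with their UTRs included. Of these genes, 1 has an exonic stretch under another gene, which is 0.146% of Idh3b under Nop56. Among annotated transcripts, Cs shares 2.01% of its 50-base words with Csl, a near copy, and the other 8 genes share 0.0% with any other gene.

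Promoters are shown because the genes moved together in the comparisons that follow. RefSeq starts on GRCm38.p6 were at hand for 8 of the 9 genes (Idh3a had no entry), and the 250 bases before each listed start were searched on both strands, with a gene counted once where several starts are listed. The CHR element TTTGAA, a word through which MuvB binds DNA, was present in the promoters of Fh1 and Idh3b, 2 of 8 genes, against 18.3% of all 27025 genes with a listed start, counted in the same way. Its other form, TTCGAA, was found in 0 of 8 genes and in 1.6% of all genes. The Fh1 stretch is shown whole, and of Idh3b the 30 bases around the word, both written 5′ to 3′ on the strand of the gene. Capitals mark the word or its reverse complement.
Fh1, chr1:175625636-175625885, minus strand: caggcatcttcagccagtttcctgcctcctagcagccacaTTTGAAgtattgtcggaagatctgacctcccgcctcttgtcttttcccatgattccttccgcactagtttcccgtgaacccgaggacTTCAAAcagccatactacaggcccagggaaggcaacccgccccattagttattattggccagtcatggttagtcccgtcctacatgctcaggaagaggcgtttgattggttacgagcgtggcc
Idh3b, chr2:130284639-130284668, minus strand: tttggatgttgtTTTGAAttttcaagagaa

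The NRF1 word (GCGCA, any base, GCGC), bound by a regulator of nuclear genes for mitochondrial proteins, occurred in the promoters of Sdha and Sucla2, 2 of 8 genes, against 4.23% of all genes. Sdha held it 3 times, beginning 98, 55 and 10 bases upstream of its start, and Sucla2 held it once. The GENCODE M21 annotation places the Sucla2 match in an exon of Sucla2 itself, inside the gene, the last Sdha match in an exon of Sdha and the first in an exon of the neighbouring gene Ccdc127. The middle match of Sdha is shown with its surroundings, since Sdha had the most matches to this word among the 8 genes.
Sdha, chr13:74350276-74350305, minus strand: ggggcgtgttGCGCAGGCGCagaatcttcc
TNAAGGTCA, the element of estrogen-related receptors, was found in 0 of 8 genes and in 1.3% of all genes. CCAAT was found in 5 of 8 genes against 37.5%, and GGGCGG in 5 of 8 against 35.4%. Several starts are listed for Ogdh, and GGGCGG was found before only some of them. A match is only a match of letters in this window, and none of these words was shared by all of the genes.

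Total counts lay between 9485599 and 9615274 in experiment 1 and between 2770741 and 2999877 in experiment 2. Of the 9 genes, every library gave at least 1225 counts per gene in experiment 1 and at least 366 in experiment 2, and all 9 passed the filter on low counts in both. Whole-gene counts of Lin9, the targeted gene, were lower in the LIN9 KO libraries of experiment 1 (19.2 to 21.4 CPM, counts scaled to TMM library size) than in LIN9 wt (21.4 to 29.8 CPM), but the groups nearly touched (log2 fold change -0.31, adjusted p = 0.13). They fell in experiment 2 with Sav1 wt, by 0.80 on the log2 scale (adjusted p = 0.00269, edgeR). In the double KO they overlapped with Sav1 KO (log2 fold change -0.16, adjusted p = 0.586), so the Lin9 counts do not separate these 2 labelled groups. Sav1 counts were lower without overlap in Sav1 KO (36.1 to 43.1 against 54.5 to 61.9 CPM) and in the double KO against LIN9 KO (40.5 to 43.9 against 47.3 to 51.9 CPM), with adjusted p-values of 0.317 and 0.465, and 25.4% of its exonic length lies under Atl1. A whole-gene count can keep most of its reads after 1 exon is removed, so it is a weak check of these labels.

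In LIN9 wt ventricles the 9 genes ranged 3.32-fold per length in experiment 1 and 3-fold in experiment 2. These levels are RPKM, CPM per kilobase of exon. Sdha, the flavoprotein of succinate dehydrogenase, and Mdh2, mitochondrial malate dehydrogenase, were highest, at 146 ± 15.1 and 141 ± 9.68 RPKM in experiment 1 (SD, n = 3 libraries), which differ by less than their spread. In experiment 2 they reached 154 ± 5.11 and 135 ± 5.52 RPKM. Cs, citrate synthase, which makes citrate, followed at 98.8 ± 10.8 and 95.6 ± 0.921 RPKM. Among the 3 subunits of isocitrate dehydrogenase 3, Idh3g, Idh3b and Idh3a were at 94.4 ± 4.13, 88.2 ± 7.99 and 86.8 ± 2.08 RPKM in experiment 1, where Idh3g lay above Idh3a in each library without overlap and Idh3b overlapped both. In experiment 2 they stood at 81.1 ± 6.31, 79.5 ± 5.34 and 78.5 ± 2.29 RPKM, which overlapped. Fh1, fumarase, was at 87.3 ± 3.35 and 70.1 ± 2.33 RPKM, and Ogdh, the first enzyme of the 2-oxoglutarate dehydrogenase complex, at 63.3 ± 7.63 and 66.7 ± 1.76 RPKM. Sucla2, the ATP-forming subunit of succinate-CoA ligase, was the lowest of the 9 genes in each of the 6 groups, with 44 ± 4.66 and 51.4 ± 4.66 RPKM in these controls. In LIN9 KO of experiment 1 Idh3a, at 45.9 ± 4.05 RPKM, stood farther below Idh3g, at 62.9 ± 4.12, and Idh3b, at 59.5 ± 4.69, which stayed close to each other.

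All 9 genes fell in LIN9 KO ventricles, in both experiments and in both Sav1 backgrounds. In experiment 1, 9 of 9 passed the test as lower (edgeR quasi-likelihood test, Benjamini-Hochberg adjustment over 19752 genes), where 9.78% of all tested genes were called lower. In experiment 2 with Sav1 wt, 9 of 9 were lower against 10.5% of 17675 genes, and with Sav1 KO 9 of 9 against 11.6%. The median log2 fold changes of the 9 genes were -0.59, -0.62 and -0.67 in these 3 comparisons, beside medians over all genes of 0.02, 0.01 and 0.03. In each comparison no LIN9 KO library reached the lowest control library for any of the 9 genes, a pattern that 18.1%, 16.8% and 19.2% of all tested genes showed in this direction. The share of all counts that fell on the 9 genes was 0.329% to 0.369% in the 9 libraries with LIN9 and 0.192% to 0.247% in the 9 libraries without it. The share on mitochondrially encoded genes moved with it where Sav1 was intact, from 4.2% to 5.42% in LIN9 wt against 3.42% to 4.02% in LIN9 KO of experiment 1, and from 3.88% to 4.86% against 2.63% to 3.54% in experiment 2. With Sav1 KO it overlapped, at 4.37% to 4.99% against 3.58% to 4.76% in the double KO, and its part in the result was not tested.

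**Figure D1:**
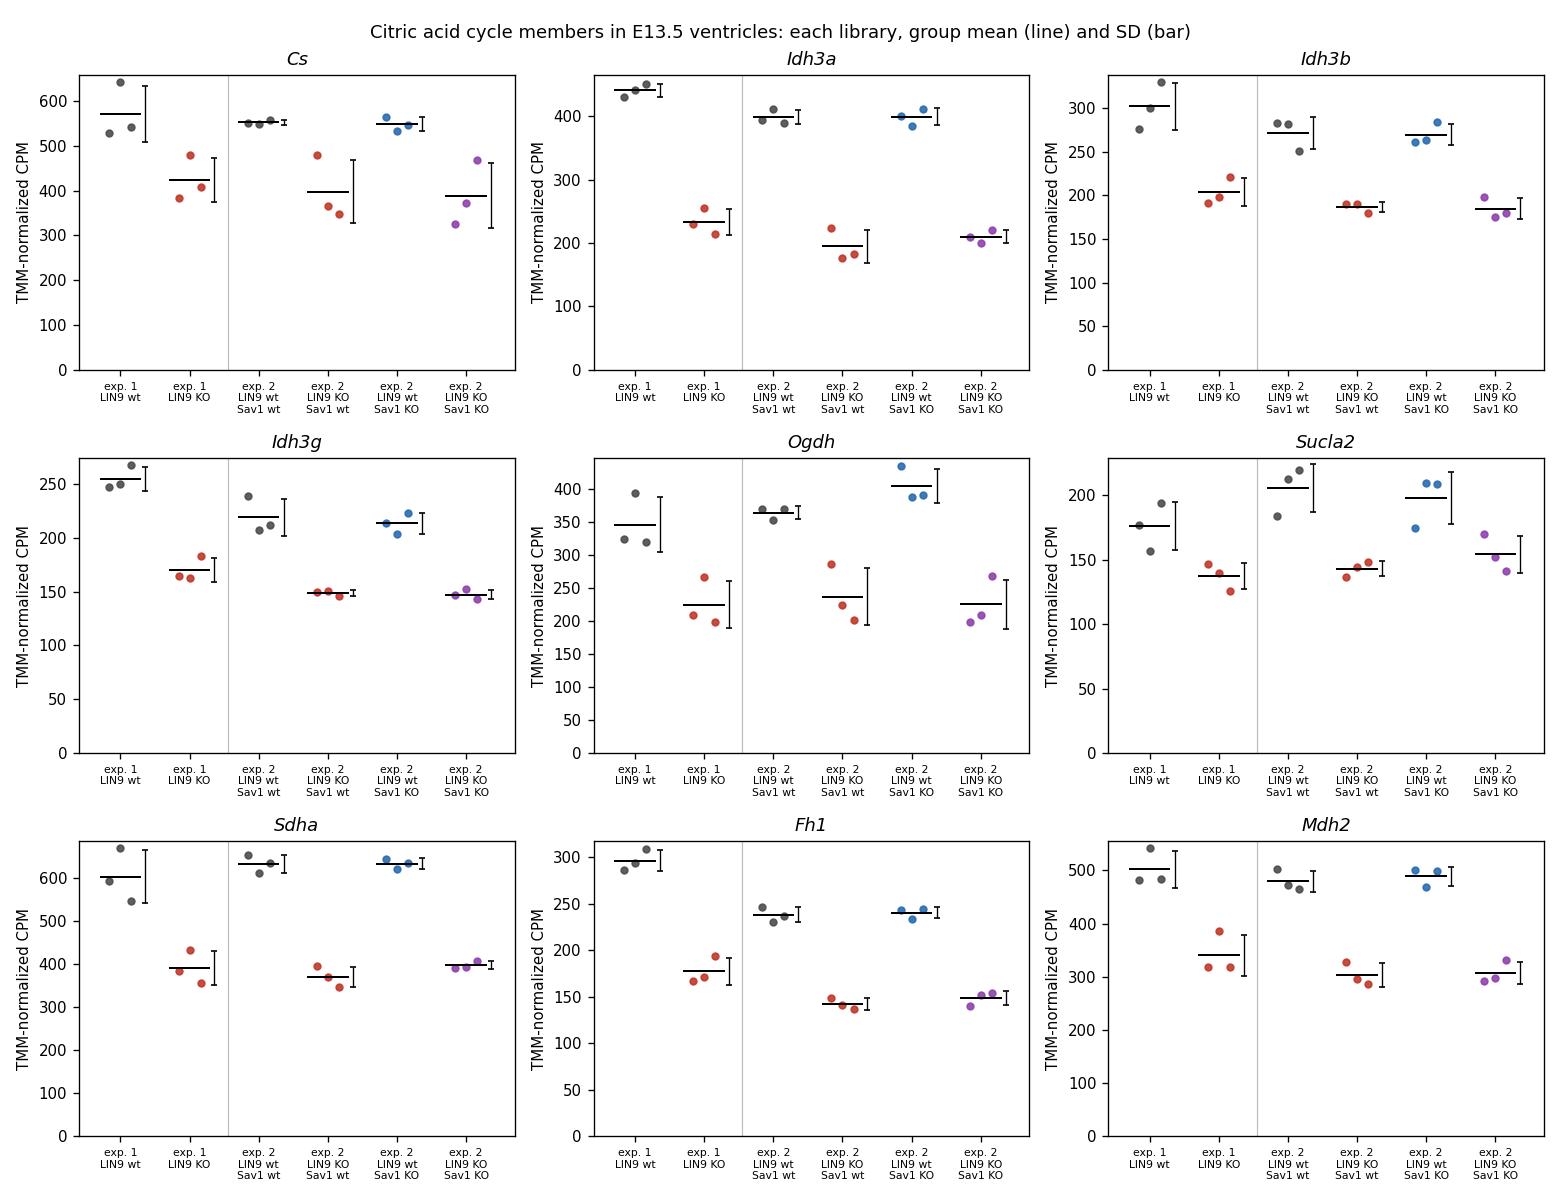
Level of each gene in TMM-normalized CPM (vertical axis, from 0) in the 18 libraries, with 1 point per library, a line for the group mean and a bar for the SD (n = 3). For each gene the LIN9 KO libraries (red, and purple for the double KO) lie below the libraries of their control group, while Sav1 KO (blue) overlaps with its controls for 8 of the genes and lies above them for Ogdh.

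Citrate synthase, at the entry to the cycle, fell in each of the 3 comparisons. Cs measured 529, 642 and 542 CPM in the LIN9 wt and 383, 479 and 409 CPM in the LIN9 KO libraries of experiment 1. In experiment 2 it measured 551, 548 and 559 CPM in the controls and 479, 366 and 349 CPM in LIN9 KO. In Sav1 KO it was at 564, 533 and 547 CPM, and in the double KO at 326, 373 and 468 CPM. The KO libraries were thus more scattered than the controls of experiment 2, with 1 high library in each KO group. Cs fell by 0.43 ± 0.13 on the log2 scale (SE; adjusted p = 0.0237) in experiment 1, and by 0.47 ± 0.12 (adjusted p = 0.00454) and 0.50 ± 0.12 (adjusted p = 0.00328) in experiment 2 with Sav1 wt and with Sav1 KO. In experiment 1 the log2 fold change was -0.48 without LIN9 wt replicate 1 (adjusted p = 0.0525), -0.34 without LIN9 wt replicate 2 (0.121) and -0.36 without LIN9 KO replicate 1 (0.123), so that the direction was kept and the call was lost.

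Idh3a had the largest decrease of the 9 genes in each of the 3 LIN9 comparisons. It encodes the catalytic alpha subunit of isocitrate dehydrogenase 3, the NAD-dependent enzyme that converts isocitrate to 2-oxoglutarate. Its level was 429, 441 and 450 CPM in LIN9 wt and 229, 255 and 214 CPM in LIN9 KO libraries of experiment 1. In experiment 2 it was 394, 412 and 390 CPM in controls against 224, 177 and 183 CPM in LIN9 KO. The Sav1 KO libraries had 401, 385 and 411 CPM and the double KO libraries 210, 200 and 220 CPM. Every library without LIN9 thus had less than every library with it, by a wide margin. Idh3a fell by 47.1% in experiment 1 (log2 fold change -0.92 ± 0.11 SE, adjusted p = 3.99e-05), by 51.2% in LIN9 KO of experiment 2 (-1.03 ± 0.10, adjusted p = 7.87e-09) and by 47.3% in the double KO against Sav1 KO (-0.93 ± 0.10, adjusted p = 5.97e-08).

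The other subunits of the same enzyme fell less. Idh3b and Idh3g encode its beta and gamma subunits, which regulate the enzyme and support catalysis. Idh3b ranged from 276 to 330 CPM in LIN9 wt and from 191 to 222 CPM in LIN9 KO of experiment 1, and from 251 to 283 CPM and 180 to 190 CPM in experiment 2. It fell by 0.57 ± 0.11, 0.54 ± 0.09 and 0.55 ± 0.09 on the log2 scale (adjusted p = 0.00193, 7.37e-05 and 7.49e-05). Idh3g ranged from 247 to 268 CPM against 162 to 183 CPM in experiment 1, and from 207 to 239 CPM against 146 to 150 CPM in experiment 2. It fell by 0.59 ± 0.10, 0.56 ± 0.09 and 0.53 ± 0.09 (adjusted p = 8.58e-04, 5.01e-05 and 9.35e-05).

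Set against Idh3b of the same library, Idh3a was 0.638, 0.558 and 0.447 log2 units higher in the LIN9 wt libraries of experiment 1, and 0.264, 0.363 and -0.048 in LIN9 KO. In experiment 2 this log2 difference between the genes was 0.475, 0.545 and 0.633 in controls and 0.236, -0.1 and 0.024 in LIN9 KO. It was 0.613, 0.546 and 0.533 in Sav1 KO and 0.079, 0.189 and 0.289 in the double KO. These differences use CPM without scaling by length, and Idh3a has 5072 exonic bases against 3422 for Idh3b. Per length, the means of Idh3a and Idh3b in the controls were 86.8 and 88.2 RPKM in experiment 1. In experiment 2 they were 78.5 and 79.5 RPKM, so only the changes between groups are read here. The RNA of Idh3a therefore fell relative to that of Idh3b in all 3 comparisons, without overlap between groups. The shift was -0.36, -0.50 and -0.38 log2 units, and against Idh3g it was -0.33, -0.48 and -0.39, also without overlap. An exact permutation test of 3 against 3 libraries cannot go below p = 0.1, and the ratio was chosen with the gene's decrease known, so these values are a description. Of single genes, 18.1%, 16.8% and 19.2% were lower without overlap in the 3 comparisons, and the share of gene pairs was not computed. The ratio of Idh3b to Idh3g, in contrast, overlapped between groups in each comparison, with differences of 0.02, 0.01 and -0.01 log2 units.

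**Figure D2:**
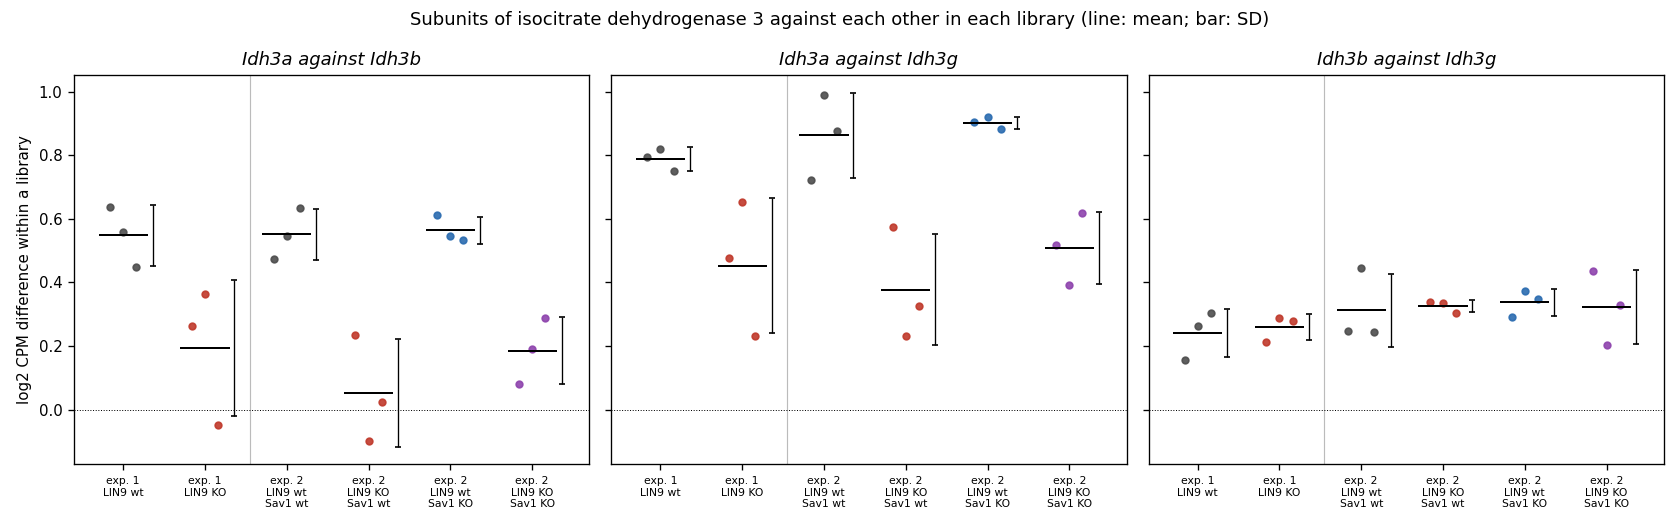
Difference in log2 CPM between 2 subunit genes of isocitrate dehydrogenase 3 in the same library (vertical axis), with 1 point per library and the mean and SD of each group (n = 3). Idh3a drops against Idh3b and against Idh3g in the 3 groups without LIN9, with no overlap with their controls, while Idh3b against Idh3g overlaps between groups.

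Ogdh catalyses the second decarboxylation, of 2-oxoglutarate, within a complex that also needs Dlst and Dld. It measured 323, 393 and 320 CPM in LIN9 wt and 209, 266 and 199 CPM in LIN9 KO of experiment 1. Experiment 2 gave 369, 353 and 370 CPM in controls against 285, 223 and 202 CPM in LIN9 KO, and 434, 387 and 390 CPM in Sav1 KO against 198, 209 and 268 CPM in the double KO. As for Cs, 1 library of each KO group was high, but none reached its control group. Ogdh fell by 0.62 ± 0.13, 0.62 ± 0.12 and 0.84 ± 0.12 on the log2 scale (adjusted p = 0.00323, 3.28e-04 and 7.50e-06). Its partners fell with it. Dlst, the succinyltransferase of the complex, fell by 0.55, 0.61 and 0.64, and Dld, the dihydrolipoamide dehydrogenase that the complex shares with pyruvate dehydrogenase, by 0.59, 0.74 and 0.71. The adjusted p-values of both genes were at most 0.00207 in the 3 comparisons.

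Cs and Ogdh also varied together within groups. In 6 of 6 groups the library with the highest Cs level was the one with the highest Ogdh level. In the controls of experiment 2, however, the highest Ogdh library stood barely above the next. For Sdha, Mdh2 and Dlst the same library was highest in 5 of 6 groups, and for Suclg2 and Sdhc in 4. It was so in 3 groups for Idh3a, in 2 for Fh1, Suclg1 and Sdhd, and in 1 for Sdhb and Sucla2. For Idh3b, Idh3g and Dld it was so in 0 of 6. Sucla2 was lowest in the library with the highest Cs in 4 of 6 groups. These patterns were noticed in the data and were not tested, and their share over all genes is not given here.

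At the step from succinyl-CoA to succinate, Sucla2 showed the smallest decrease of the 9 genes in experiment 1 and in the double KO. Its level was 177, 156 and 194 CPM in LIN9 wt and 146, 139 and 126 CPM in LIN9 KO of experiment 1. In experiment 2 it was 184, 212 and 219 CPM in controls and 137, 144 and 148 CPM in LIN9 KO. In Sav1 KO it was 174, 210 and 208 CPM, and in the double KO 170, 152 and 141 CPM. Groups did not overlap, but the highest double KO library came close to the lowest Sav1 KO library. Sucla2 fell by 0.36 ± 0.11, 0.52 ± 0.10 and 0.36 ± 0.10 (adjusted p = 0.0318, 4.15e-04 and 0.0125).

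The Sucla2 calls in experiment 1 and in the double KO were the least stable of the list when 1 library was left out. In LIN9 KO of experiment 2 Sucla2 kept its call in 6 of 6 such fits (edgeR, adjusted p at most 0.00617). In experiment 1 the call was lost, at log2 fold changes between -0.40 and -0.28, without LIN9 wt replicate 1 (adjusted p = 0.108), LIN9 wt replicate 3 (0.16), LIN9 KO replicate 1 (0.0543) or LIN9 KO replicate 3 (0.058). Against Sav1 KO it was lost, at log2 fold changes of -0.32 to -0.31, without Sav1 KO replicate 2 (adjusted p = 0.0681), Sav1 KO replicate 3 (0.0708) or double KO replicate 3 (0.0578). Suclg1, the alpha subunit with which Sucla2 pairs, fell by 0.50, 0.61 and 0.57 (adjusted p = 0.00203, 1.04e-04 and 2.31e-04). Suclg2, the GTP-forming alternative to Sucla2, fell by 0.78, 0.67 and 0.82 (adjusted p = 4.80e-05, 1.60e-04 and 1.36e-05). Of the 50-base words of Suclg2, 16% also occur in the transcript of Gm15163, so its reads may be split. The ratio of Sucla2 to Suclg2 within a library was higher in LIN9 KO without overlap in experiment 1, by 0.43 log2 units. In experiment 2 the groups overlapped, with differences of 0.15 log2 units in LIN9 KO and 0.46 in the double KO against Sav1 KO.

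Succinate dehydrogenase is both an enzyme of the cycle and complex II of the respiratory chain. Sdha ranged from 547 to 670 CPM in LIN9 wt and from 356 to 434 CPM in LIN9 KO of experiment 1. In experiment 2 it ranged from 612 to 654 CPM in controls, from 348 to 395 CPM in LIN9 KO, from 622 to 646 CPM in Sav1 KO and from 391 to 408 CPM in the double KO. Sdha fell by 0.63 ± 0.12, 0.77 ± 0.09 and 0.67 ± 0.09 (adjusted p = 0.00198, 2.86e-07 and 2.42e-06). The other subunits fell in each comparison as well, namely the iron-sulfur protein Sdhb by 0.82, 0.81 and 0.73, and the membrane anchors Sdhc by 0.90, 0.67 and 0.97 and Sdhd by 0.67, 0.66 and 0.68. Their adjusted p-values were at most 0.00148. Of the 4 factors that assemble this enzyme, Sdhaf3 alone passed the edgeR test, and only in LIN9 KO of experiment 2. There it fell by 0.64 (adjusted p = 0.0467), against values of -0.22 and -0.31 in the other comparisons (adjusted p = 0.414 and 0.348). In LIN9 KO of experiment 2, 10.5% of all tested genes were called lower, so a single call among 4 genes says little about this set.

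The last reactions restore oxaloacetate. Fh1 measured 286, 294 and 308 CPM in LIN9 wt and 167, 171 and 193 CPM in LIN9 KO of experiment 1. In experiment 2 it measured 246, 230 and 237 CPM in controls and 149, 141 and 136 CPM in LIN9 KO, and 243, 233 and 244 CPM in Sav1 KO against 140, 151 and 154 CPM in the double KO. The groups stood far apart in both experiments. Fh1 fell by 0.74 ± 0.11, 0.74 ± 0.09 and 0.70 ± 0.09 (adjusted p = 1.68e-04, 6.44e-07 and 1.82e-06), or by 40.2%, 40.2% and 38.2%. Mdh2 ranged from 481 to 542 CPM against 318 to 385 CPM in experiment 1, from 465 to 502 CPM against 287 to 328 CPM in experiment 2 with Sav1 wt, and from 468 to 501 CPM against 293 to 331 CPM with Sav1 KO. It fell by 0.56 ± 0.12, 0.66 ± 0.09 and 0.67 ± 0.09 (adjusted p = 0.00328, 5.48e-06 and 4.49e-06).

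Of the cycle's other subunits, the 7 described here (Dlst, Dld, Suclg1, Suclg2, Sdhb, Sdhc and Sdhd) were called lower in 7 of 7 genes in each of the 3 LIN9 comparisons, with medians of -0.67, -0.67 and -0.71. Pyruvate dehydrogenase, the complex that makes acetyl-CoA for the cycle, was lower in 4 of 4 genes (Pdha1, Pdhb, Dlat and Pdhx) in each, with medians of -0.59, -0.53 and -0.58. Of these, Dlat had the largest decrease in experiment 1, by 0.75, and Pdhb in experiment 2, by 0.77. The kinases and phosphatases that switch this complex off and on gave 2 lower and 0 higher of 7 genes in experiment 1, 2 lower and 1 higher in LIN9 KO of experiment 2, and 1 lower and 0 higher in the double KO. Over all genes 9.78%, 10.5% and 11.6% were called lower and 11.1%, 12.7% and 11.8% higher, so a single call among 7 genes is close to the background. Pdk2, a kinase, fell by 0.96, 0.50 and 0.95 (adjusted p = 4.22e-05, 0.0105 and 1.76e-05), while Pdk1 rose by 0.29 in experiment 2 (adjusted p = 0.0372) with Sav1 wt and had log2 fold changes of -0.15 in experiment 1 (adjusted p = 0.465) and -0.05 in the double KO (adjusted p = 0.761). Pdp1, a phosphatase, fell by 0.39 in experiment 1 (adjusted p = 0.0447) and by 0.77 in LIN9 KO of experiment 2 (adjusted p = 0.00312), and its log2 fold change in the double KO against Sav1 KO was -0.38 (adjusted p = 0.135).

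Isozymes outside the cycle and enzymes that feed or drain it did not move as one. Of 13 such genes, 4 were lower and 3 higher in experiment 1, 4 lower and 2 higher in LIN9 KO of experiment 2, and 5 lower and 2 higher in the double KO. Over all genes, 9.78%, 10.5% and 11.6% were called lower in these comparisons and 11.1%, 12.7% and 11.8% higher. Idh2, the NADP-dependent mitochondrial isocitrate dehydrogenase, fell by 0.79, 0.76 and 0.81 (adjusted p = 3.19e-04, 2.71e-06 and 1.22e-06). Pcx, pyruvate carboxylase, which makes oxaloacetate from pyruvate, rose by 0.71, 1.36 and 0.91 (adjusted p = 0.00309, 1.03e-06 and 2.78e-04). Ogdhl, a paralogue of Ogdh, rose by 0.55, 0.84 and 0.91 (adjusted p = 0.00478, 7.71e-05 and 2.89e-05), opposite in sign to Ogdh itself, and was named after its values were seen.

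**Figure D3:**
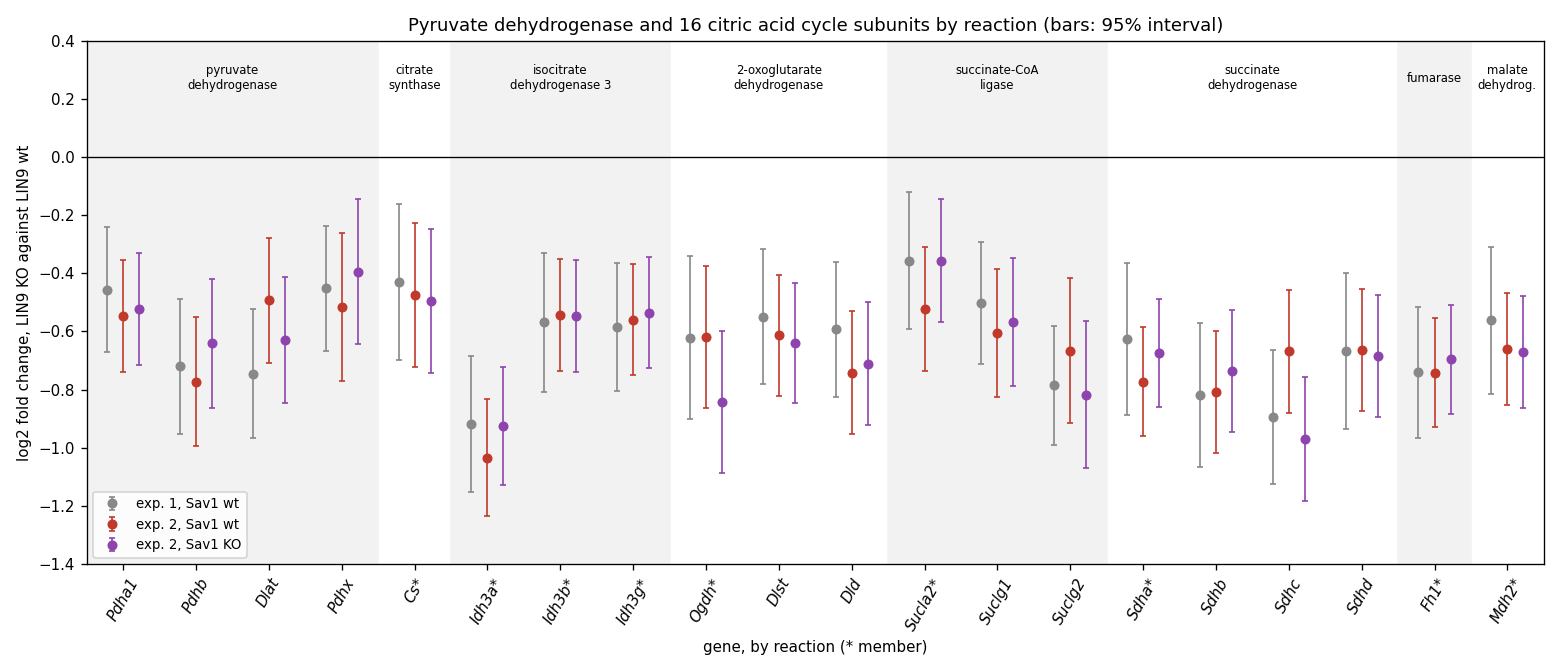
Log2 fold change of LIN9 KO against LIN9 wt (vertical axis) for pyruvate dehydrogenase and 16 subunits of the cycle in the order of the reactions, with 95% intervals and a colour for each of 3 comparisons. The points and their intervals lie below 0 for each gene drawn, with Idh3a lowest in 2 of the comparisons.

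Markers of cell types moved in the same comparisons. Of 12 cardiomyocyte markers 10 were tested, 6 fell in each LIN9 comparison and 0 rose, with medians of -0.76, -0.74 and -0.73. Among all tested genes 9.78%, 10.5% and 11.6% were called lower in these comparisons. Tnnc1 and Actc1, which define this cell type, are listed at 0 in all 18 libraries, so cardiomyocytes were read from the other 10. The summed level of these markers was 20610 to 22240 CPM in LIN9 wt and 10870 to 16340 CPM in LIN9 KO of experiment 1. In experiment 2 it was 23670 to 25370 CPM in controls, 13810 to 15560 CPM in LIN9 KO, 26300 to 27490 CPM in Sav1 KO and 13410 to 17450 CPM in the double KO. Markers of ventricular cardiomyocytes (Myl2, Irx4, Hey2 and Mycn) fell in 4 of 4 genes in each comparison, with medians of -1.26, -1.18 and -1.19.

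Markers of other cells rose in the same libraries. Epicardial markers rose in 5 of 6 genes in each LIN9 comparison, those of fibroblasts and cushion mesenchyme in 7, 7 and 8 of 8, and those of macrophages in 7, 6 and 6 of 7. Of all tested genes, 11.1%, 12.7% and 11.8% were called higher in the 3 comparisons and 9.78%, 10.5% and 11.6% lower. Summed fibroblast and cushion markers went from 2288 to 2615 CPM in LIN9 wt to 4713 to 5108 CPM in LIN9 KO of experiment 1, and from 2995 to 3221 CPM to 5315 to 6720 CPM in experiment 2. Endothelial and endocardial markers rose in 3, 3 and 5 of 8 genes and fell in 0, 1 and 1. Erythroid markers rose in 9, 10 and 10 of 10 tested genes (Alas2 is listed at 0), and haemoglobin genes took 0.785% to 1.11% of counts in LIN9 wt and 3.52% to 8.64% in LIN9 KO of experiment 1. In experiment 2 they took 0.422% to 0.544% in controls, 2.13% to 3.75% in LIN9 KO, 0.331% to 0.432% in Sav1 KO and 1.04% to 3.1% in the double KO. The part of these shifts in the decrease of the cycle's genes was not tested, and in bulk tissue fewer cells of a type and less RNA per cell cannot be told apart.

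Set against the summed cardiomyocyte markers of the same library, a measure chosen after the data were seen, the 9 genes together did not go down. They amounted to 15.8, 16.6 and 16.7 CPM per 100 CPM of markers in LIN9 wt and 18.4, 15.2 and 20.4 in LIN9 KO of experiment 1. In experiment 2 the ratio was 14.5, 13.1 and 13.2 in controls, 15, 14.9 and 14.2 in LIN9 KO, 13, 12.6 and 12.5 in Sav1 KO and 15.5, 13.1 and 13.3 in the double KO. It overlapped between LIN9 wt and LIN9 KO in both experiments with Sav1 wt and was higher without overlap in the double KO than in Sav1 KO. In experiment 1 the overlap rested on LIN9 KO replicate 2. Its summed markers were 16340 CPM, against 11920 and 10870 CPM in LIN9 KO replicates 1 and 3. By this measure Idh3a was still lower in LIN9 KO, without overlap, in experiment 1 (difference of -0.19 log2 units) and in experiment 2 with Sav1 wt (-0.26), and overlapped with Sav1 KO (-0.14). Cs was higher without overlap in all 3 comparisons, by 0.30, 0.29 and 0.27. The other 7 genes overlapped between groups in experiment 1. In experiment 2 Idh3b and Sucla2 were higher without overlap with Sav1 wt, by 0.24 and 0.26, and Idh3b, Idh3g and Sucla2 with Sav1 KO, by 0.23, 0.25 and 0.43, while the rest overlapped. Over all genes tested, 60.6%, 64.3% and 69.8% were higher without overlap on this measure in the same 3 comparisons and 1.32%, 1.3% and 0.99% lower, so being higher by this measure was not particular to these genes.

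**Figure D4:**
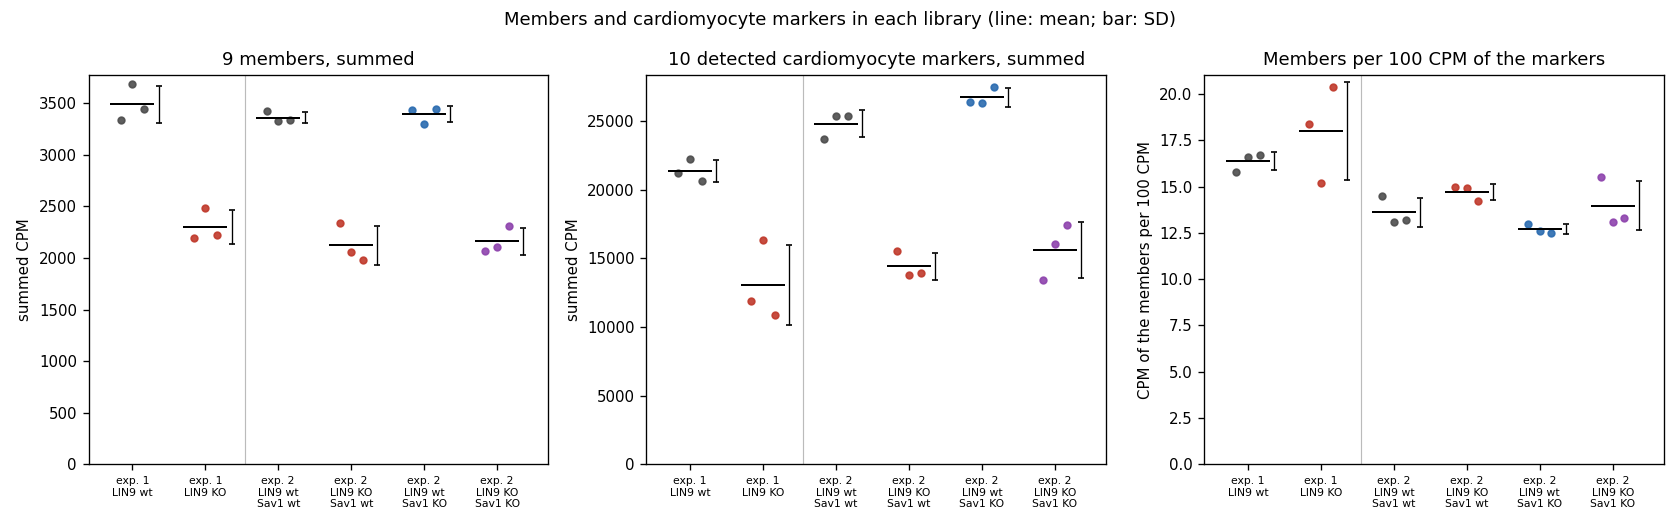
Summed CPM of the 9 genes, summed CPM of the 10 cardiomyocyte markers with counts, and the first as CPM per 100 CPM of the second (vertical axes, from 0), in each of 18 libraries with the mean and SD of each group. The first and the second panel drop in the 3 groups without LIN9, while the ratio lies between 12.5 and 20.4 in all libraries.

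Loss of Sav1 left the cycle's genes within a narrow range when all libraries were used. In LIN9 wt ventricles 0 of 9 passed the test (edgeR) and 0 of 9 had an unadjusted p under 0.05, against 0.017% and 3.93% of all genes, and DESeq2 called 0 of 9. The log2 fold changes ran from -0.06 for Sucla2 to 0.15 for Ogdh, and their median was 0.00. Ogdh was the only gene of the 9 without overlap, at 387 to 434 CPM in Sav1 KO and 353 to 370 CPM in controls, a pattern of 5.97% of all genes in this direction and 6.14% in the other, and its 95% interval ran from -0.09 to 0.39 (adjusted p = 0.999). For the other 8 genes the 95% intervals lay within -0.27 and 0.23. In LIN9 KO ventricles the loss of Sav1 gave 0 of 9 calls as well, 0 at an unadjusted p under 0.05 and 0 with DESeq2, against 0.0113% of all genes called and 11.8% at the unadjusted threshold. Here the values ran from -0.07 for Ogdh to 0.11 for Idh3a, with a median of 0.02. All 9 of 9 genes overlapped between groups, where 7.87% of all genes were lower and 7.2% higher without overlap. With 1 library left out, the values in LIN9 KO ventricles ran from -0.215 to 0.087 for Ogdh and from -0.186 to 0.127 for Cs. For Idh3a they then ran from 0.062 to 0.228, and 0 of 9 genes were called in any of these fits.

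Whether the loss of LIN9 acted differently with and without Sav1 was tested by the interaction, the Sav1 effect in LIN9 KO minus that in LIN9 wt. It was called for 0 of 9 genes by edgeR and by DESeq2, with 0 of 9 at an unadjusted p under 0.05, and for 0% of all genes by edgeR (0 of 17675, with 1153, or 6.52%, at an unadjusted p under 0.05). The largest values were -0.22 for Ogdh (95% interval -0.57 to 0.12, adjusted p = 0.866) and 0.17 for Sucla2 (-0.14 to 0.47, adjusted p = 0.896). For Idh3a the interaction was 0.11 (-0.17 to 0.39, adjusted p = 0.927). These intervals do not show that the effects were alike, only that a difference beyond them was not seen. With 1 library left out, the interaction ran from -0.355 to -0.054 for Ogdh and from 0.093 to 0.254 for Sucla2. For Idh3a it then ran from 0.057 to 0.235.

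**Figure D5:**
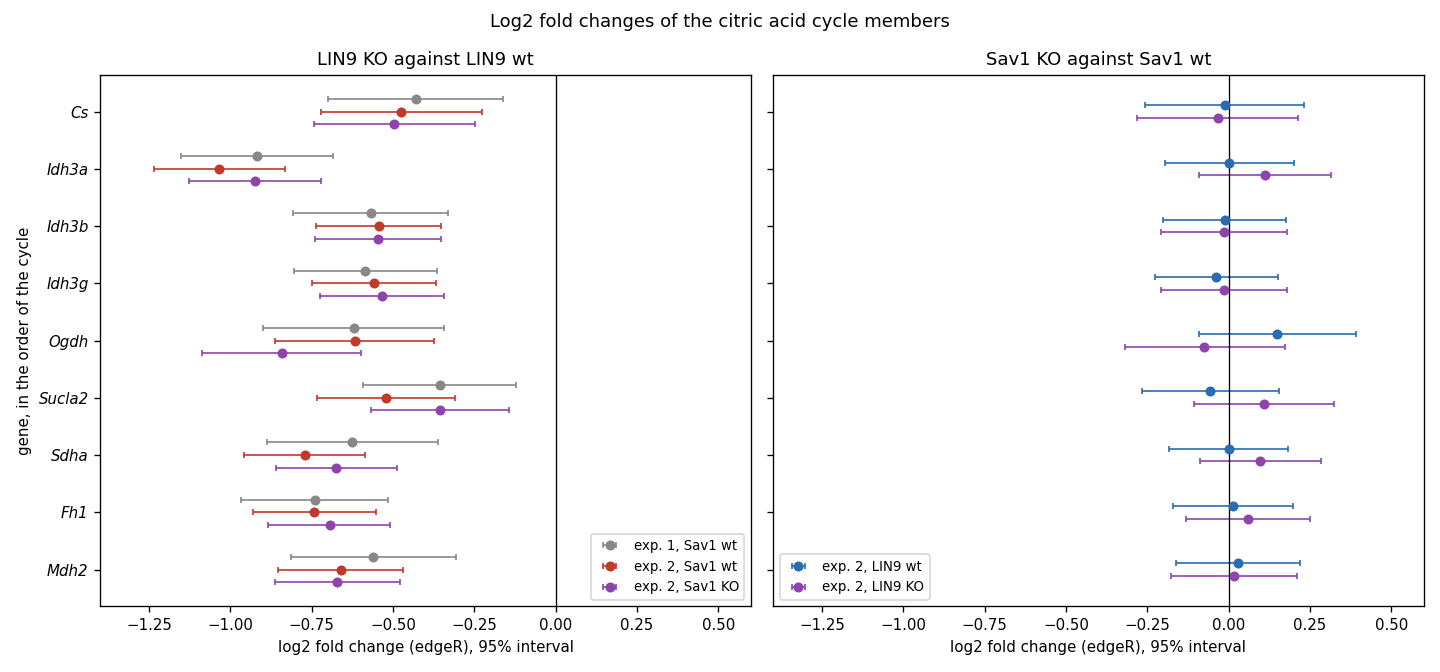
Log2 fold changes of the 9 genes (horizontal axis) with 95% intervals from edgeR, for LIN9 KO against LIN9 wt (left) and Sav1 KO against Sav1 wt (right), with a colour for each background. On the left all intervals lie below 0, with Idh3a farthest, and on the right all 18 intervals include 0.

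The genes that followed the mean profile of the 9 most closely over the 18 libraries were looked for among 12117 genes with at least 5 CPM in both experiments. Likeness was the root mean square distance, in log2 units, between a gene's differences from its control mean and the mean of the same differences over the 9 genes. The mean difference of the 9 was -0.742 to -0.514 in the LIN9 KO libraries and -0.057 to 0.048 in the others. The 5 closest other genes were Smyd1, a muscle methyltransferase, Atp5a1, the alpha subunit of ATP synthase, Dlst, Ndufv1, a subunit of complex I, and Mtus1, at distances of 0.0514, 0.0548, 0.0561, 0.0612 and 0.0652. Among all genes Mdh2 itself ranked 1, Sdha 8, Fh1 25 and Idh3g 29, whereas Sucla2 ranked 673 and Idh3a 1098. The profile was thus closest to Mdh2 and farthest from Idh3a among the 9, with all 9 genes included in the mean.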

How the data were processed

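The deposited tables give read counts for each Ensembl gene. To make them, the authors mapped reads with TopHat2 (2.1.0, per the submitters' processing notes) and Bowtie2 to mm10, brought the libraries to the smallest number of mappable reads, and counted with summarizeOverlaps. Strand use is not given in the sources used here, and reads in overlapping genes may be lost. The difference in depth, with 9485599 or more counts (experiment 1) against 2770741 or more (experiment 2), makes experiment 2 less precise for low genes. The deposited tables of the authors' comparisons hold log2 fold changes, log2 CPM, p-values and FDR and were not used. The 4 ChIP-seq libraries of the series did not enter. Some results on the other subunits of the cycle are not reported here, so their counts do not cover the whole cycle.

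TMM library sizes and robust quasi-likelihood fits of edgeR (4.0.16, in R 4.3.3) were used for genes with a mean count above 1. Experiment 2 was 1 fit of 12 libraries with contrasts, interaction included. P-values were adjusted by Benjamini-Hochberg over all genes, with a threshold of 0.05. CPM used TMM library sizes, log2 CPM a prior count of 2, and RPKM the union of GENCODE M21 exons. Scripts were tested on simulated data. Promoters came from RefSeq (GRCm38.p6). DESeq2 (1.42.0) and other settings served as alternatives. The genes, lists and tests were chosen with earlier results of these data known. Genes outside the list were named by a rule: Lin9, Sav1, other cycle subunits, the largest decrease and increase called per list in LIN9 comparisons with Sav1 wt, and the 5 most alike; Ogdhl was added after its values were seen. Same-numbered libraries deviated together, with every correlation above 0.1, for LIN9 KO and LIN9 wt with Sav1 wt (0.257 to 0.637) and for Sav1 KO and Sav1 wt with LIN9 (0.102 to 0.33) in experiment 2, which comes from these values alone.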

Additional observations from a re-analysis of the deposited data

How the results depend on the processing

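In the LIN9 comparisons, every change of tool, scaling, filter or fit kept all 9 calls of the cycle's genes, with DESeq2, RLE factors, library totals, TMM without mitochondrial and haemoglobin genes, no filter, filterByExpr, no robust estimates, the replicate block and, in experiment 2, only the 6 libraries compared. With the replicate block 9 of 9 genes stayed lower in each LIN9 comparison and 0 of 9 were called for Sav1 or the interaction, so it changed no call of the list. Leaving out 1 library left 7 to 9 calls in experiment 1, 9 in LIN9 KO of experiment 2 and 8 to 9 in the double KO. The median of the list then ran from -0.659 (without LIN9 KO replicate 2) to -0.544 in experiment 1 and from -0.736 (without LIN9 KO replicate 1) to -0.576 in experiment 2 with Sav1 wt. That of the interaction ran from -0.002 to 0.099. All genes called in experiment 1 went from 2722 (without LIN9 wt replicate 3) to 4223. For Sav1 in LIN9 wt ventricles, 3 genes were called, but 22 without the filter, 1 without robust estimates, 31 with only the 6 libraries, and 0 to 2 with 1 library left out. For Sav1 in LIN9 KO ventricles, 2 were called, but 77 with DESeq2, 10 without mitochondrial and haemoglobin genes, 309 without the filter, 84 with the replicate block, 0 with filterByExpr, 0 without robust estimates, 0 with only the 6 libraries, and 0 to 377 with 1 library left out, the most without LIN9 KO replicate 3. The interaction gave 0 genes, 17 without the filter and 0 to 64 with 1 library left out. The cause of these shifts was not tested, and none of them brought in a gene of the list. With 3 libraries per group and at least 366 counts per gene, the printed intervals give the differences for Sav1 that these data leave possible.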
